A study of Mus musculus with 8 samples.

Results

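The 8 genes described here encode enzymes of haem biosynthesis: Alas1, Alas2, Alad, Uros, Urod, Cpox, Ppox and Fech. They were chosen by symbol, and all 8 are among the 23293 mouse genes of the deposited expression table. All 8 had a mean of at least 1 FPKM (a fragment count divided by transcript length and mapped total) over the 8 libraries, the minimum for testing that 10854 genes met. Of these, 7 exceeded 1 FPKM in every library, whereas Alas2 passed only through the groups without Flt3-ITD.

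RNA was sequenced from bone marrow cells selected with magnetic beads for c-Kit (Cd117), the stem cell factor receptor of early blood progenitors, 4 weeks after PIpC, with 1 mouse per library. PIpC raises interferon, which switches on the Mx1 promoter and so the Mx1-cre recombinase. Each of 4 groups had 2 libraries: controls with a floxed Smc3 allele (Smc3 fl/+) and no Mx1-cre; Smc3 del/+ with Mx1-cre; Flt3-ITD with Mx1-cre; and Flt3-ITD with Mx1-cre and the Smc3 deletion, called combined. Smc3 is a ring subunit of cohesin, and Flt3-ITD is an activating internal tandem duplication of the Flt3 receptor. The genotype label of the combined group reads Smc3 fl/del Flt3-ITD, and its titles read Smc3het. The sources used here give neither age, sex nor the number of Flt3-ITD alleles. Every mouse received PIpC, and every comparison with control also compares mice with and without Mx1-cre. Below, Flt3-ITD carriers are the 4 libraries of the Flt3-ITD and combined groups, and non-carriers are the 4 control and Smc3 del/+ libraries.

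The depth in reads is unknown. Between 8878 and 11076 genes were listed at 0 per library, the most in combined replicate 2, whose low values also pointed to the least depth (0.712 of that of control replicate 1, an uncertain estimate). Replicates correlated across genes at r = 0.98 in the control, Smc3 del/+ and Flt3-ITD groups and at 0.93 in the combined group. Kit was at 37.4 to 60.1 FPKM in every library, so the label of the selected cells had its defining transcript. Smc3 itself was at 112 to 119 FPKM in the controls, 133 to 135 in the Smc3 del/+ mice, 89.9 to 94.7 in the Flt3-ITD mice and 103 to 136 in the combined mice, so that its level, which also includes the intact allele, was not lower in the Smc3 del/+ libraries. Xist was at 499.8 to 657 FPKM in the control and combined libraries and below 1 FPKM in the Smc3 del/+ and Flt3-ITD libraries. The control and combined mice therefore had the female pattern and the others the male pattern, and sex cannot be told apart from genotype in Smc3 del/+ or Flt3-ITD against control, nor in the combined group against either of these. The interaction of the Smc3 deletion with Flt3-ITD is the same contrast as the female pattern against the male. Sex is balanced between carriers and non-carriers and between mice with and without the Smc3 deletion, and it is the same in the combined group as in the controls.

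Haem is made from glycine and succinyl-CoA by a chain of enzymes that begins in mitochondria, passes through the cytosol and ends in mitochondria with the insertion of iron. The first and rate-limiting enzyme, 5-aminolevulinate synthase, has separate genes: Alas1, used in all tissues and repressed by haem, and Alas2 on the X chromosome, used in developing red cells, where demand for haemoglobin makes haem synthesis far larger. Alad joins aminolevulinate into a pyrrole, Uros closes the ring, Urod and Cpox trim its side chains, Ppox oxidises it and Fech adds the iron.

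Sequences of Alas1 and Alas2 are shown first, because the data turn on the difference between these genes. The letters are the 250 bases before an annotated start site in RefSeq (build GRCm38.p6), 5′ to 3′ on the strand of the gene. Capitals mark matches, on either strand, to AGATAA, to the variant AGATAG, to the variant TGATAA or to the variant TGATAG, hexamers of the kind bound by Gata1, the erythroid GATA factor, and to CCNCNCCCN, the kind bound by Klf1, the erythroid Krüppel-like factor. Of the 8 genes, 7 had an entry used here, with 10 start sites.
Alas2, chrX:150547167-150547416, plus strand: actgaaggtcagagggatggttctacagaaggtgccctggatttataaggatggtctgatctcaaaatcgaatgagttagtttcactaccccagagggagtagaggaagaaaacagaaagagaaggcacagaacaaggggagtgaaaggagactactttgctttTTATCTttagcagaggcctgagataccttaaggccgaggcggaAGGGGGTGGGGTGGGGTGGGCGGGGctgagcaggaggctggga
Alas1, chr9:106247955-106248204, minus strand: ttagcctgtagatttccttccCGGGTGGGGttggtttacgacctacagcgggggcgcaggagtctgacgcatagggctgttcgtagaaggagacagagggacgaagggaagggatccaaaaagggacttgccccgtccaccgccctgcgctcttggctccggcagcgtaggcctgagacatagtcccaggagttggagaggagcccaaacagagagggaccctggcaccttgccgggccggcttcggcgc
Alas2 held 1 GATA-type match, TTATCT at positions -86 to -81 from the start, and 4 CCNCNCCCN matches, overlapping or adjoining, from -43 to -19. The Alas1 window held no GATA-type match and 1 CCNCNCCCN match. The windows of Alad, Urod and Ppox also held no GATA-type match. A link between these matches and the changes in level was not tested. GATA-type hexamers were present in 26.5% of all 32851 promoter windows of this length and in 3 of the 10 windows of the haem enzymes, and CCNCNCCCN in 45.8% of all windows, so neither match is rare. AGATAA itself, the form in the Alas2 window, was present in 9.99% of all windows.

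Cpox, the enzyme with the highest level in the non-carriers, had 2 GATA-type matches that share a base, at -91 to -81 together, shown in capitals.
Cpox, chr16:58669958-58670207, plus strand: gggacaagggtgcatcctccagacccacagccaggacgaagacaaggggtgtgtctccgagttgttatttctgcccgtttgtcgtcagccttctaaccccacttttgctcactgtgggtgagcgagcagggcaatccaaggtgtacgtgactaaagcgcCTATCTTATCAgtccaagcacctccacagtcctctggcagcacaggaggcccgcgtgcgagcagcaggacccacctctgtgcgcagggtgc
A second Alas1 start lies 224 bases downstream of the other, and at position -195 from it begins GCGCATGCGC, a palindrome of the kind bound by the respiratory factor Nrf1, capitals in the following 30 bases.
Alas1 site, chr9:106247906-106247935, minus strand: cgcacccaagGCGCATGCGCggcggtcact
This palindrome was present in 0.782% of all promoter windows, and in that of no other haem enzyme examined. Nrf1 itself was at 15.2 to 18.4 FPKM in the non-carriers and 14.6 to 16.9 in the carriers, ranges that overlapped.

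The Alas2 transcript also carries an iron-responsive element near its 5′ end, through which iron regulates translation of the enzyme. In the GENCODE M21 transcript it spans bases 85 to 112, with the loop in capitals.
Alas2 iron-responsive element: tggttcgtcctCAGTGCagggcaacagg
A match was absent from the 6 coding Alas1 transcripts searched. RNA levels do not measure that translational step.

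Alas2 was low in the non-carriers and at or near 0 in the carriers. It was 2.49 and 3.31 FPKM in the controls, 2.82 and 3.85 in the Smc3 del/+ mice, 0.288 and 0 in the Flt3-ITD mice, and 0 and 0 in the combined mice. Every non-carrier was above every carrier, and only Flt3-ITD replicate 1 among the carriers had any signal. With 1 FPKM added before the logarithm, which makes changes of low genes look smaller, Alas2 fell by 1.77 ± 0.280 (SE, n = 2 and 2) in Flt3-ITD against control (limma, Benjamini-Hochberg adjusted p = 0.00732). Alas2 met the minimum for testing only through the non-carriers, where it is high, and was also called with no filter on low values. Without control replicate 1 or 2 the difference was -1.93 or -1.62, and the call was lost. No fold is given for the combined group, which is listed at 0. Among the tested genes, Alas2 ranked above 12.0% to 20.7% in the non-carriers and above 0% to 1.66% in the carriers. Its exons overlap those of Apex2, a DNA repair gene on the opposite strand, and the sources used here do not say whether counting used strand. Apex2 was at 3.30 to 4.41 FPKM in the non-carriers and 2.14 to 4.68 in the carriers, overlapping ranges.

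Alas1 went the other way. It was 76.1 and 84.2 FPKM in the controls, 84.9 and 91.3 in the Smc3 del/+ mice, 118.9 and 134.0 in the Flt3-ITD mice, and 94.9 and 133.0 in the combined mice. All 4 carriers lay above all 4 non-carriers, with combined replicate 1 only just above the highest of them. In the table normalized by the authors they overlapped, at 83.5 to 123.7 in the carriers and 88.6 to 121.4 in the non-carriers. Alas1 rose by 0.65 ± 0.177 in Flt3-ITD against control (adjusted p = 0.0420), and was 0.48 ± 0.177 higher in the combined group, which did not pass the test (adjusted p = 0.120). Averaged over both Smc3 states, Alas1 rose by 0.50 ± 0.131 with Flt3-ITD (adjusted p = 0.0261). The call was lost, in this comparison and in the averaged one, when any 1 control, Smc3 del/+ or Flt3-ITD library was left out, and it depends on the scale. When libraries were scaled to the spike-in RNAs, the median of all genes moved to -0.50 in Flt3-ITD against control. Alas1 was 0.11 higher on that scale (adjusted p = 0.717) and 0.61 higher relative to that median. In the table normalized by the authors the median was -0.58, and Alas1 was 0.14 higher (adjusted p = 0.577), or 0.72 relative to the median. On those 2 scales Alas1 in the combined group against control turned negative, at -0.22 and -0.21, while relative to the median it was 0.43 and 0.47 higher. Alas1 exons also overlap those of 4930500F10Rik, an antisense gene on the opposite strand, whose level is not reported here.

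Alas1 was the far larger source of synthase transcript in every library. Per length, its level was 23.7 to 30.5 times that of Alas2 in the non-carriers and 413 times in Flt3-ITD replicate 1, and in the other carriers Alas2 was listed at 0. Alas2 thus made up 3.17% to 4.05% of the summed synthase FPKM in the non-carriers and 0.241% in Flt3-ITD replicate 1. The log2 ratio of Alas2 + 1 to Alas1 + 1 was -4.46 and -4.30 in the controls, -4.49 and -4.25 in the Smc3 del/+ mice, -6.54 and -7.08 in the Flt3-ITD mice, and -6.58 and -7.07 in the combined mice. The plot of both synthases by library shows 2 levels of this ratio, split by Flt3-ITD and not by the Smc3 deletion. Its mean was -6.82 ± 0.294 (SD, n = 4) in carriers and -4.38 ± 0.118 (SD, n = 4) in non-carriers, a difference of -2.44 (two-sided exact permutation test, p = 0.0286, the smallest that 70 arrangements allow, and 0.0571 adjusted over the 2 factors tested). For the Smc3 deletion the difference was -0.0014 (exact permutation p = 1). Because Alas2 is at 0 in 3 carriers, the size of the first difference depends on the value added before the logarithm, and it was -5.01 with 0.1 in place of 1.

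**Figure D1:**
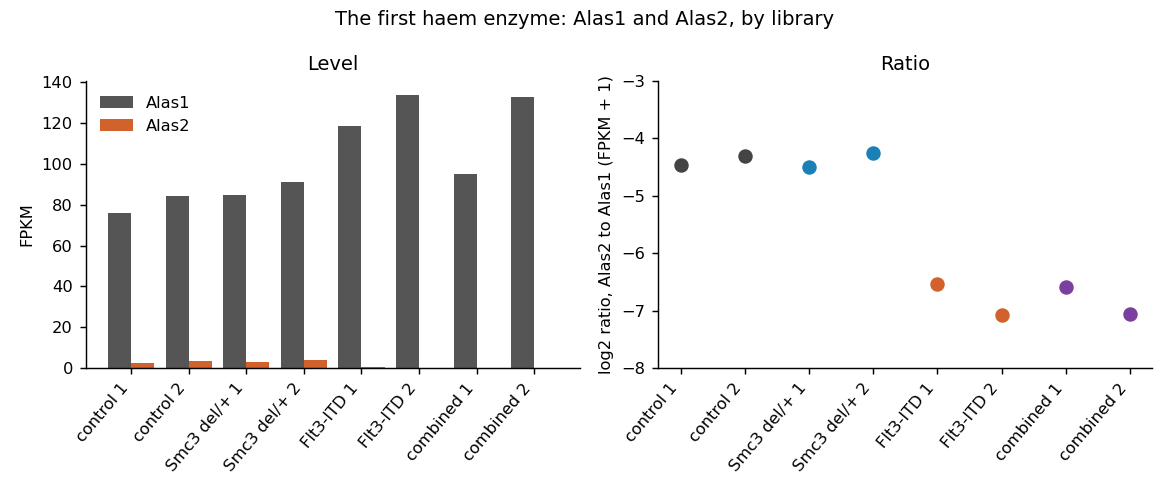
Left, FPKM of Alas1 (grey bars) and Alas2 (orange bars) in each of the 8 libraries, on a linear axis from 0; right, the log2 ratio of Alas2 to Alas1, 1 FPKM added to each, as 1 point per library coloured by group. Non-carriers lie between -4.49 and -4.25 and carriers between -7.08 and -6.54.

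The cytosolic steps fell with Flt3-ITD. Alad, which makes the pyrrole unit, was 8.81 and 11.8 FPKM in the controls, 7.54 and 7.26 in the Smc3 del/+ mice, 1.02 and 1.66 in the Flt3-ITD mice, and 1.03 and 1.97 in the combined mice. Every carrier was below every non-carrier, and the carriers' mean was 16.0% of the non-carriers' mean, the lowest such share of the 8 after Alas2. Alad fell by 2.27 ± 0.270 in Flt3-ITD against control (adjusted p = 0.00296).

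Uros, which closes the porphyrin ring, was 18.9 and 14.7 FPKM in the controls, 14.4 and 18.5 in the Smc3 del/+ mice, 3.69 and 3.67 in the Flt3-ITD mice, and 5.74 and 8.55 in the combined mice. The Flt3-ITD libraries were lowest and the combined ones lay between them and the non-carriers, with no overlap. Uros fell by 1.92 ± 0.230 in Flt3-ITD (adjusted p = 0.00296) and by 1.14 ± 0.230 in the combined group (adjusted p = 0.0225), each against control.

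Urod, which removes carboxyl groups from the ring, was 24.4 and 26.4 FPKM in the controls, 22.7 and 22.2 in the Smc3 del/+ mice, 7.995 and 7.63 in the Flt3-ITD mice, and 10.9 and 6.54 in the combined mice. The combined libraries lay on either side of the Flt3-ITD pair, and all carriers were below all non-carriers. Urod fell by 1.58 ± 0.218 in Flt3-ITD against control (adjusted p = 0.00474).

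Of the later enzymes, Cpox and Fech fell and Ppox did not pass the test. Cpox, which works between the mitochondrial membranes, was 154 and 156 FPKM in the controls, 149 and 129 in the Smc3 del/+ mice, 25.5 and 15.2 in the Flt3-ITD mice, and 31.1 and 71.7 in the combined mice. The carriers spread widely, with combined replicate 2 well above the other 3, and still did not reach the non-carriers. On the scale of log2(FPKM + 1), Cpox had the largest fall of the 8 in Flt3-ITD against control, 2.91 ± 0.374 (adjusted p = 0.00378). This rank depends on the added 1 FPKM. Mean FPKM in control and Flt3-ITD was 155 and 20.4 for Cpox, 10.3 and 1.34 for Alad, and 2.90 and 0.144 for Alas2. Cpox exons overlap those of Gpr15, on the opposite strand, which was at no more than 0.465 FPKM in any library. Cpox ranked above 95.3% to 96.5% of tested genes in the non-carriers and above 55.6% to 89.4% in the carriers.

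Ppox, which oxidises protoporphyrinogen, was 14.1 and 14.1 FPKM in the controls, 11.1 and 12.5 in the Smc3 del/+ mice, 12.8 and 9.28 in the Flt3-ITD mice, and 10.4 and 5.10 in the combined mice. Carriers and non-carriers overlapped, and combined replicate 2 was the lowest library. In the table normalized by the authors they did not overlap, at 3.98 to 11.66 in the carriers and 11.81 to 20.9 in the non-carriers. The difference in Flt3-ITD against control was -0.34 ± 0.295 (95% interval -1.03 to 0.34, adjusted p = 0.463), and in the combined group against control -0.86 ± 0.295 (adjusted p = 0.103). In the table normalized by the authors Ppox passed in both comparisons, at -0.93 (adjusted p = 0.0408) and -1.54 (adjusted p = 0.00514), which is -0.35 and -0.87 relative to the median of all genes there. Under spike-in scaling it passed in the combined group, at -1.50 (adjusted p = 0.00454), and not in Flt3-ITD, at -0.85 (adjusted p = 0.0628). Ppox exons overlap those of B4galt3, a galactosyltransferase gene on the opposite strand, which was at 14.8 to 20.6 FPKM in the non-carriers and 12.1 to 27.9 in the carriers.

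Fech, which inserts iron into the ring, was 62.5 and 58.7 FPKM in the controls, 47.6 and 54.0 in the Smc3 del/+ mice, 17.6 and 13.3 in the Flt3-ITD mice, and 21.0 and 19.0 in the combined mice. The groups were tight, and the highest carrier was below the lowest non-carrier. Fech fell by 1.92 ± 0.164 in Flt3-ITD against control (adjusted p = 0.0011).

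**Figure D2:**
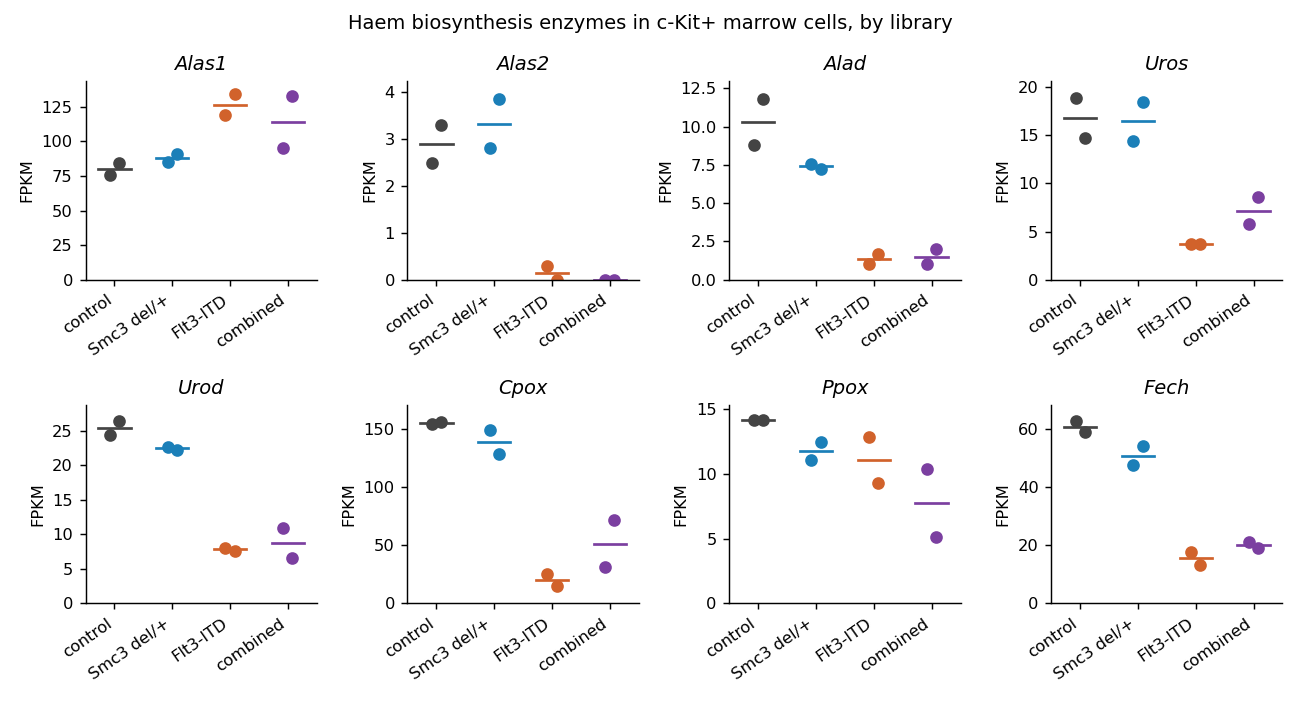
FPKM of the 8 enzymes, 1 panel per gene with its own linear axis from 0; points are libraries (2 per group) and lines are group means. On this scale carriers and non-carriers overlap for Ppox and for no other of the 8, and Alas1 is the gene with carriers above non-carriers. The share of all tested genes without overlap was not computed. In the table normalized by the authors Alas1 overlaps and Ppox does not.

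The order of levels within the pathway differed between carriers and non-carriers. In the control and Smc3 del/+ groups it was Cpox, Alas1, Fech, Urod, Uros, Ppox, Alad and Alas2 from highest to lowest FPKM, with no overlap between neighbours in either group of 2. In Flt3-ITD it was Alas1, Cpox, Fech, Ppox, Urod, Uros, Alad and Alas2, where Cpox and Fech overlapped. In the combined group it was Alas1, Cpox, Fech, Urod, Ppox, Uros, Alad and Alas2, where Ppox overlapped both Urod and Uros. Alas1 was thus the second of the 8 in the non-carriers and the first in the carriers. The summed FPKM of the 8 was 362 to 369 in the controls, 338 to 340 in the Smc3 del/+ mice, 185 to 188 in the Flt3-ITD mice and 175 to 246 in the combined mice.

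Over the 8 enzymes, 6 were lower and 1 was higher in Flt3-ITD than in control at an adjusted p under 0.05, where 9.50% of the 10854 tested genes were lower and 8.51% higher. Their median log2 fold change was -1.85, against -0.01 for all tested genes. The 6 were Alas2, Alad, Uros, Urod, Cpox and Fech, and the 1 was Alas1. Of these, Alas2 met the minimum for testing only through the non-carriers. Without control replicate 1, Alas1 and Alas2 did not pass, and without control replicate 2 only Alad, Cpox, Fech and Uros did. Averaged over both Smc3 states, the same 6 fell and Alas1 rose, with 12.8% of all tested genes lower and 10.9% higher. With 1 FPKM added, which makes the fall of Alas2 look smaller, the averaged falls were 2.22 for Cpox, 2.02 for Alad, 1.94 for Alas2, 1.61 for Fech, 1.51 for Uros and 1.44 for Urod. Ppox was -0.48 (adjusted p = 0.120). Ppox passed in this averaged comparison in the normalized table, at -0.91 (adjusted p = 0.00709), and under spike-in scaling, at -0.88 (adjusted p = 0.00947), or -0.47 relative to the median of all genes on each scale. In this averaged comparison leaving out any 1 library gave 6 or 7 calls, and Alas1 was the one lost.

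In the combined group against control, 6 of the 8 were lower and none higher, where 6.38% of tested genes were lower and 5.41% higher. Alad fell by 2.19 ± 0.270 (adjusted p = 0.00531), Cpox by 1.69 ± 0.374 (adjusted p = 0.0295), Fech by 1.55 ± 0.164 (adjusted p = 0.00351) and Urod by 1.48 ± 0.218 (adjusted p = 0.00846), beside Uros and Alas2. These calls borrow the spread from all 4 groups. With the combined and control libraries alone none of the 8 passed, with adjusted p from 0.0516 for Fech upward among the 6. In that fit 0.378% of all tested genes passed. Most of the 6 calls were also lost without control replicate 1 or 2, where 1 control library remains. The combined group and Flt3-ITD were compared with the same controls, so these falls are not independent of those above. Against Smc3 del/+, where both sides carry Mx1-cre and the deletion but differ in the sex pattern of Xist, 5 of the 8 were lower (Alad, Alas2, Fech, Urod and Uros), with 2.89% of tested genes lower. Cpox was at -1.53 there (adjusted p = 0.0613), and passed in the normalized table at -1.87 (adjusted p = 0.0134) and under spike-in scaling at -1.86 (adjusted p = 0.00588). Without combined replicate 1 or 2 Cpox was at -0.94 or -2.12, with 1 combined library left. None of the 5 passed with the 2 groups alone, where 0.0184% of all tested genes did. All 5 calls were also lost without Smc3 del/+ replicate 1 or without replicate 2, where 1 library of that group remains. Uros did not pass with the replicate number as a block (adjusted p = 0.0599).

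The Smc3 deletion on its own was not accompanied by a detectable change in these genes. In Smc3 del/+ against control none of the 8 passed, by limma, with 0.00921% of tested genes called. None of the 8 reached an unadjusted p under 0.05, as 494 of the 10854 tested genes did. Differences ran from -0.42 ± 0.270 for Alad (95% interval -1.05 to 0.21) to 0.15 ± 0.280 for Alas2 (-0.50 to 0.80), with a median of -0.17 against 0.00 for all tested genes. The intervals leave room for changes of about this size, and Cpox had the widest, from -1.03 to 0.71. Averaged over both Flt3 states, none of the 8 and 0% of tested genes passed, with no member at an unadjusted p under 0.05. That unadjusted level was reached by 525 of the 10854 tested genes.

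On the Flt3-ITD background Cpox and Uros had the largest differences with the Smc3 deletion, and neither passed. In combined against Flt3-ITD libraries, Cpox was 1.22 ± 0.374 higher (95% interval 0.35 to 2.09, adjusted p = 0.318) and Uros 0.78 ± 0.230 higher (0.24 to 1.31, adjusted p = 0.304). They were the 2 of 8 at an unadjusted p under 0.05, a level that 1196 of the 10854 tested genes reached. At an adjusted p under 0.05, 0.286% of all tested genes were called. The test of whether the deletion acted differently with and without Flt3-ITD (the interaction, which cannot be told apart from sex here) called none of the 8 and 0.0369% of tested genes. Its estimates were 1.38 for Cpox (adjusted p = 0.483), 0.81 for Uros (adjusted p = 0.505) and 0.62 for Fech (adjusted p = 0.474), the 3 at an unadjusted p under 0.05. For the interaction, 1009 of the 10854 tested genes reached that unadjusted level. Of the combined libraries, replicate 2 had the higher Cpox and Uros values. When combined replicate 1 was left out, Cpox at 1.81, Uros at 1.03 and Ppox at -0.97 passed against Flt3-ITD, in a fit in which 29.9% of all tested genes passed and the lone sample is assumed to vary like the other groups.

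**Figure D3:**
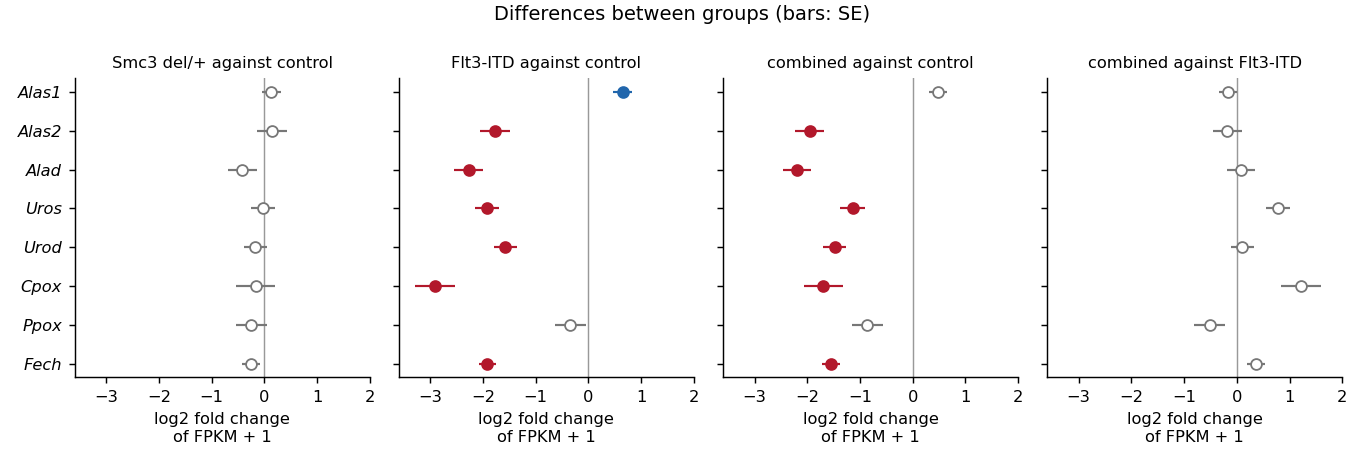
Log2 fold change of FPKM + 1 with its standard error for the 8 enzymes in 4 comparisons; filled points passed at an adjusted p under 0.05 (red lower, blue higher) and open points did not. Filled points stand in the 2 panels that set Flt3-ITD or combined libraries against control and in neither panel of the Smc3 deletion.

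The neighbouring steps of the pathway changed in part. Of 16 genes of substrate supply and mitochondrial transport, 7 fell and none rose in Flt3-ITD against control, where 9.50% of all tested genes fell and 8.51% rose. The list's median was -0.51, and that of all tested genes -0.01, which are the background for each list below as well. They included Tmem14c, needed for porphyrin import into the mitochondrial matrix (from 65.9 and 71.6 FPKM in control to 30.0 and 27.2, a fall of 1.24 ± 0.138, adjusted p = 0.00241), and Tspo2, an erythroid relative of the mitochondrial translocator protein Tspo (from 17.6 and 10.7 FPKM to 0 and 0.472). Abcb6, a porphyrin transporter, fell by 1.60 ± 0.247 (adjusted p = 0.00682), Suclg2, a subunit of a succinyl-CoA synthetase, by 1.17 ± 0.249 (adjusted p = 0.01997), and Abcb10, which stabilises the iron importer mitoferrin, by 0.99 ± 0.263 (adjusted p = 0.0400). Mitoferrin itself, Slc25a37, was at -0.28 ± 0.127 (adjusted p = 0.169), and Slc25a38, the glycine carrier, at -0.55 ± 0.224 (adjusted p = 0.127).

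Of 10 iron-sulphur cluster genes, which supply the cluster that Fech holds, 3 fell and none rose (median -0.54), beside 9.50% of all tested genes that fell. Among them, Glrx5 fell by 1.57 ± 0.188 (adjusted p = 0.00296) and Isca1 by 0.84 ± 0.155 (adjusted p = 0.0124). Fdx1l was at -0.79 (adjusted p = 0.0608). Of 10 tested genes of haem use, export and breakdown, 3 fell and none rose (median -0.30), beside the same 9.50%. Blvrb, a biliverdin reductase abundant in red cells, was 93.2 and 88.9 FPKM in control and 8.69 and 4.10 in Flt3-ITD, a fall of 3.71 ± 0.279 (adjusted p = 0.000715). Hmox1, the inducible haem oxygenase, fell by 2.15 ± 0.288 (adjusted p = 0.00444) and Abcg2, a porphyrin exporter, by 1.98 ± 0.288 (adjusted p = 0.00552). Hmox2, the constitutive haem oxygenase, was 0.42 higher (adjusted p = 0.0948).

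Of 11 regulators, 5 fell and none rose (median -0.20), beside 9.50% of all tested genes that fell. Of these 5, 4 are erythroid transcription factors or their partner. Gata1 was 30.1 and 32.1 FPKM in the controls, 26.6 and 25.5 in the Smc3 del/+ mice, 3.16 and 0.534 in the Flt3-ITD mice, and 3.596 and 5.83 in the combined mice. It fell by 3.67 ± 0.424 in Flt3-ITD (adjusted p = 0.00269), Klf1 by 4.17 ± 0.351 (adjusted p = 0.00107), Tal1 by 2.55 ± 0.237 (adjusted p = 0.0014) and Zfpm1, the Gata1 partner, by 3.06 ± 0.157 (adjusted p = 0.000153). The fifth was Aco1, an iron-sensing RNA-binding protein. None of the members of these lists was called in Smc3 del/+ against control or in combined against Flt3-ITD libraries. In these comparisons 0.00921% and 0.286% of all tested genes were called.

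**Figure D4:**
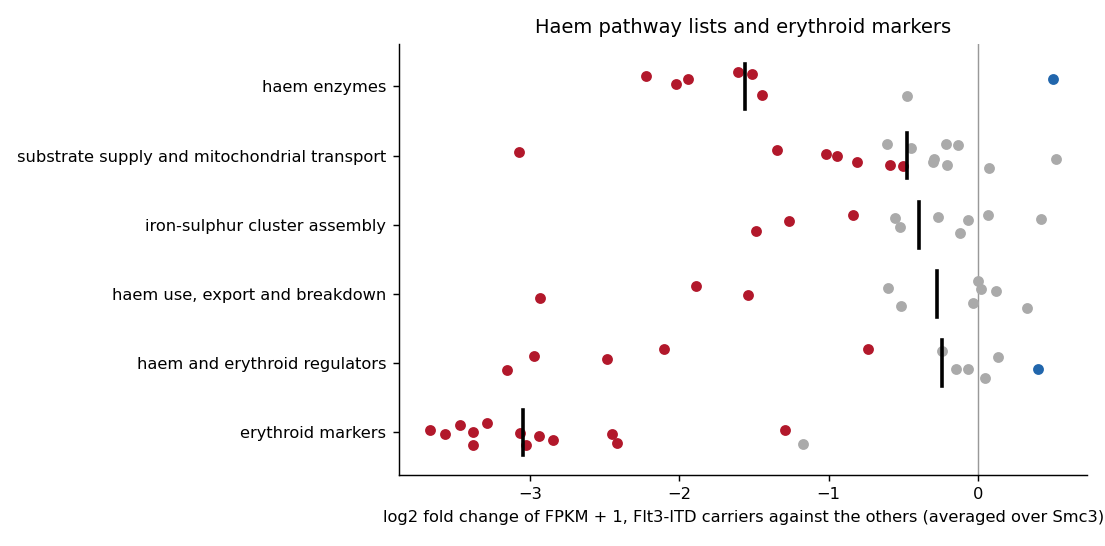
Log2 fold change of FPKM + 1 between Flt3-ITD carriers and non-carriers, averaged over both Smc3 states, for each tested gene of 5 haem lists and the erythroid markers; red and blue points passed at an adjusted p under 0.05 (lower and higher), grey points did not, and bars are list medians. The haem enzymes have a median of -1.56 and the erythroid markers of -3.05.

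Markers of red cell precursors moved with the same groups. Of 14 tested erythroid markers, 13 fell in Flt3-ITD against control (median -3.46), where 9.50% of all tested genes fell. Among them were Epb4.2, Ank1, Sptb and Slc4a1, parts of the red cell membrane and its skeleton, with falls of 3.40, 3.64, 2.98 and 3.39. Their summed FPKM was 2210 to 2274 in the controls, 2035 to 2118 in the Smc3 del/+ mice, 96.3 to 242 in the Flt3-ITD mice and 212 to 673 in the combined mice. Combined replicate 2 was the highest carrier in that sum, as it was for Cpox, Uros and Alad. It was the lowest carrier for Urod (6.54 FPKM) and Ppox (5.10), and not the highest for Fech, Alas1 or Alas2. Hba-a1 and Hbb-b1, globin genes with near-identical copies, were listed at 0.01 FPKM in most libraries while Hba-a2 and Hbb-b2 reached 347 and 171, so the split of reads between copies is uncertain. In bulk cells, fewer cells of a type and less RNA per cell cannot be told apart. The part of a change in erythroid cells in the falls of the haem enzymes was not tested.

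Beside the erythroid markers the haem enzymes fell less on the scale of log2(FPKM + 1). Relative to the mean log2 value of 11 tested erythroid markers without globins, every one of the 8 had a higher mean in the carriers than in the non-carriers, as a description with no test. The differences were 0.72 for Cpox, 0.92 for Alad, 1.003 for Alas2, 1.33 for Fech, 1.43 for Uros, 1.499 for Urod, 2.47 for Ppox and 3.44 for Alas1. Alad and Alas2 overlapped between carriers and non-carriers on this scale. The added 1 FPKM limits how far low genes can fall, so the value for Alas2 cannot show that it fell less than the markers. In FPKM its carriers' mean was 2.31% of its non-carriers' mean. Among the carriers Cpox had the narrowest spread of the 8, at 2.32 to 2.44, against 1.57 to 1.80 in the non-carriers, so that the carriers, far apart in FPKM, lay close together on this scale.

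Markers of other cells in the c-Kit fraction also moved, in a comparison in which 9.50% of all tested genes fell and 8.51% rose. In Flt3-ITD against control, 6 of 6 megakaryocyte markers fell (summed FPKM 188 to 194 in control, 65.4 to 73.3 in the Smc3 del/+ mice, 16.2 to 21.4 in the Flt3-ITD mice and 15.3 to 57.8 in the combined mice). Of 7 macrophage markers 5 fell, with sums of 107 to 115, 110 to 133, 78.0 to 88.1 and 80.1 to 94.1 in the same order of groups and Cd5l at 0 in all carriers. Of 6 B cell markers 5 fell, with sums of 63.7 to 169, 25.7 to 39.7, 5.06 to 9.26 and 6.06 to 9.53, and with Pax5 at 0 in all carriers. Of 7 neutrophil-lineage markers 2 rose (Ltf and Camp), and their sum was 79640 to 86772 FPKM in control, 104578 to 108138 in the Smc3 del/+ mice, 158315 to 223201 in the Flt3-ITD mice and 137739 to 169536 in the combined mice. Of 6 mast cell and basophil markers 2 fell and Hdc rose, with sums of 120 to 131, 180 to 189, 107 to 119 and 121 to 126. The part of these cells in the levels of the haem enzymes, Alas1 included, was not tested.

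By Pearson correlation of log2(FPKM + 1) over the 8 libraries, the tested genes most like Alas2 were Psmd4, Pdia2, Mrpl38, Fcna and Uhrf1, each at r = 0.98. Those most like Alas1 were Cxcr4, Nktr and Serf2, at 0.97, and Vps4b and Xpc, at 0.96. Cxcr4, a chemokine receptor that holds cells in the marrow, was 140 and 148 FPKM in the controls and 246 and 286 in Flt3-ITD. Alas1 and Alas2 correlated at -0.81 with each other, and Alas2 with Fech at 0.96, with Urod and Alad at 0.95 and with Ppox at 0.64. These values describe 8 libraries that share 2 levels of Flt3-ITD status, and carry no test.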

How the data were processed

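Poly(A) RNA was measured in c-Kit-positive marrow cells of 8 mice, 2 per group. The authors deposited FPKM values in 2 tables of 23385 rows, 92 of them spike-in RNAs. The submitters' processing notes name TopHat, Cufflinks 2.0.0 and the mm9 build, and the sources used here give no annotation, strand setting or read depth. The table without further normalization gave the main results, and the one that the authors normalized was an alternative. R 4.3.3 and limma 3.58.1, with the trend option, tested log2(FPKM + 1) of 10854 genes whose mean reached 1 FPKM. Contrasts came from 1 fit of 4 group means, the averaged effects from an additive model, and Benjamini-Hochberg adjustment ran over all tested genes (threshold 0.05). The script was tested on simulated data. With 2 libraries a group, the limma p-values of the main fit rest on a spread between mice pooled over the 4 groups. That spread is also drawn toward the spread of genes of similar level. Replicate numbers do not pair the mice (correlations of replicate differences -0.11 to 0.02). The 8 members, the gene lists and the rule for named genes (the 8, up to 4 per list with the smallest p in Flt3-ITD against control, and a few always named) were chosen with earlier results of these data known. Other markers (Aco1, Camp, Pax5) are named because they were counted. RefSeq promoters and GENCODE M21 transcripts are of GRCm38, so no gene coordinates of the tables are given. Sequences of Fech are not shown here. Ahsp is not analysed here, some list members are not reported here, and Flvcr1 and Flvcr2 were found under older names. Exon overlaps were read from GENCODE M21. Alternatives were another pseudocount, no filter, no trend, other scalings, the 2 groups alone, a replicate block and leaving out each library.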

Additional observations from a re-analysis of the deposited data

Results flagged for a closer look

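Alas2 stood out within the 4 Flt3-ITD carriers, where Flt3-ITD replicate 1 had 0.288 FPKM and the other 3 libraries were at 0. It was picked out because the gap of the highest library to the next was the whole range of the group, which holds for any value above 0 when the others are at 0, so no weight rests on it. The screen covered 16 groups of 4 libraries (8 genes in carriers and in non-carriers), and the rate of about 1 in 20 that chance gives does not apply to tied zeros.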

How the results depend on the processing

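With 2 libraries a group, unknown depth and Alas2 at 0 in 3 libraries, small changes could not be measured. Of 128 values in Flt3-ITD against control over the alternatives, 114 kept direction and call and none changed sign; of 120 averaged over Smc3, 110 did, and none changed sign. Calls in Flt3-ITD against control were 4 to 7 when a library was left out. Calls in the combined group were 0 against control and 0 against Smc3 del/+ with the 2 groups alone, and 1 to 8 and 0 to 8 when a library was left out; against Flt3-ITD they were 0 to 3, and for the interaction 0 to 2. The replicate block gave 7, 6 and 4 calls for Flt3-ITD against control, combined against control and combined against Smc3 del/+, and lost no call other than Uros there.

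The ratio of Alas2 to Alas1 differed with Flt3-ITD by -2.12 in the normalized table and by -2.53 to -2.35 without 1 library, and had a permutation p of 0.0556 with the replicate block, the smallest possible. With the Smc3 deletion the difference was 0.0904 in the normalized table and ran from -0.49 to 0.49 without 1 library. Signs also turned for differences that had not passed. In the normalized table and under spike-in scaling, Smc3 del/+ against control was -0.21 and -0.23 for Alas1 and -0.27 and -0.15 for Alas2, and the combined group against control -0.21 and -0.22 for Alas1. In the combined group against Flt3-ITD, Urod was -0.0011 and -0.0346 on these scales and Alad -0.0181 with spike-ins. The interaction was 0.17 for Alas2 and 0.0404 for Ppox in the normalized table. For the Smc3 deletion averaged, Fech was -0.20 and -0.20 on these scales, and with equal medians Alas1 was 0.0020 and Alas2 0.00059. The cause was not tested.

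Leaving out 1 library gave ranges across 0 as follows. In Smc3 del/+ against control they were -0.0235 to 0.32 for Alas2 and -0.20 to 0.14 for Uros. In the combined group against Flt3-ITD they were -0.41 to 0.0746 for Alas1, -0.20 to 0.36 for Alad and -0.22 to 0.44 for Urod. In the interaction they were -0.0541 to 0.61 for Urod and -0.72 to 0.18 for Ppox. For the Smc3 deletion averaged they were -0.0817 to 0.11 for Alas1, -0.12 to 0.0892 for Alas2, -0.19 to 0.0723 for Urod and -0.0817 to 0.15 for Fech.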
